A study of Mus musculus with 16 samples.

Results

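H3K27me3, trimethylation of lysine 27 on histone H3, was described in wild-type mouse embryonic stem cells that carried no Firre transgene, here called the WT control line. The members were the 2 H3K27me3 ChIP-seq libraries of that line and their 2 input libraries, 4 of the 16 libraries of the series, read over all 102957 consensus peaks. The question addressed was which loci and gene classes carry the mark in these cells. The series asked how inducing the long non-coding RNA Firre with doxycycline affects the mark in WT and Firre KO cells.

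H3K27me3 is written by Polycomb repressive complex 2, whose catalytic subunit is EZH2 or EZH1 and whose core partners are EED and SUZ12. The mark is bound by CBX proteins of Polycomb repressive complex 1 and lies over CpG-rich starts of genes that are silent or held ready. In embryonic stem cells it is best known at transcription factor genes of the later germ layers, and on the inactive X chromosome of differentiating female cells.

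The WT control cells were labelled WT and treated with doxycycline for 0 h or 48 h. All lines of the series grew on gelatin in medium with fetal calf serum, LIF, the MEK inhibitor PD0325901 and the GSK3 inhibitor CHIR99021, and all were sampled at both times. The lines used for comparison were WT cells with the inducible Firre transgene (WT transgene), Firre KO cells without it (KO control) and Firre KO cells with it (KO transgene). Each line had 1 library per assay and time, and no label names separate cultures or clones. The p-values therefore measure only the spread between the 0 h and 48 h libraries, which may be technical. In edgeR's fits of the 4 libraries that spread was pooled over all peaks or regions and was near counting error. A ChIP library shows the mark at the embryonic stem cell genes and not their expression, so the cell type could not be checked by its markers.

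The H3K27me3 libraries held 13011769 counts in peaks at 0 h and 13804844 at 48 h, against 6184450 and 5983860 in the input libraries. The 2 times differed little beyond counting noise, with a chi-square per degree of freedom of 1.04 between the H3K27me3 libraries and 1.01 between the input libraries. Below, the ratio of a region is its share of the counts in the H3K27me3 library divided by its share in the input library. Regions were called above or below input by edgeR's quasi-likelihood test with time as a block at a Benjamini-Hochberg adjusted p of 0.05, and intervals are 95% and cover counting error only. With a common dispersion of 0.000202 and 1 residual degree of freedom, the calls followed read depth closely, so the size of each ratio is given beside them. edgeR's prior degrees of freedom were infinite, so a peak's or region's own difference between times had no weight in its p-value.

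The microRNA genes among the most strongly marked loci are shown first, because the seeds of miR-10, miR-196 and miR-9 recur at separate marked loci. They were chosen after their values were seen. Sequences are from RefSeq on GRCm38.p6, 5′ to 3′, with the seed (bases 2 to 8) in capitals.
miR-10a-5p: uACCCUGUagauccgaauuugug
miR-10b-5p: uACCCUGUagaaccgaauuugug
miR-196a-5p: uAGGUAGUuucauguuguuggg
miR-196b-5p: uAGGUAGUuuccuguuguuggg
miR-9-5p: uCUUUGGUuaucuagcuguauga
miR-132-3p: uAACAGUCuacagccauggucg
miR-212-3p: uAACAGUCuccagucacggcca

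The first pair share the seed ACCCUGU, the second pair AGGUAGU and the last pair AACAGUC. Mir10a lies inside the HoxB peak and Mir10b inside the HoxD peak, with ratios of 2.49 and 2.00. Mir196b lies inside the HoxA peak and Mir196a-2 inside the HoxC peak, with ratios of 2.131 and 1.955. The remaining gene of that seed, Mir196a-1 (chr11:96265164-96265265), lies between Hoxb9 and Hoxb13 and overlapped the end of a peak at 0.345. That peak held 41 and 35 H3K27me3 counts at 0 h and 48 h, against 54 and 46 input counts, and was among the lowest of all named peaks.

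The neural microRNA miR-9 is encoded at 3 loci, and all 3 were called above input. Mir9-1 on chromosome 3 lay in a peak with 1695 and 1708 H3K27me3 counts at 0 h and 48 h, against 382 and 388 input counts, a ratio of 2.11 at 0 h and 1.91 at 48 h. Mir9-3 on chromosome 7 had a ratio of 1.6 and Mir9-2 on chromosome 13 a ratio of 1.24. Mir132 and Mir212, which share a transcript next to the tumour suppressor gene Hic1, lay in 1 peak at a ratio of 1.90. Of 1005 hairpins in the RefSeq table, 316 had a tested peak within 2 kb. Of these, 88 (27.9%) were above input, 25 (7.91%) were above by at least 1.5-fold and 15 (4.75%) were below. The same shares were 4.24%, 1.08% and 6.33% of all tested peaks and 21.9%, 4.12% and 16.6% of gene regions. They were 30.4%, 8.66% and 4.81% of peaks within 1 kb of a coding gene start. Each hairpin was given the peak with the most counts, and hairpins can share a peak, so the shares are not set apart from these.

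Over all peaks, 4317 of 101919 tested (4.24%) were above input and 6447 (6.33%) below. A ratio of at least 1.5 was reached by 1098 of the peaks above input (1.08% of those tested), a ratio of 2 by 143 and a ratio of 3 by 16. The ratio was above 1 at both times in 4317 of the 4317 peaks called above input, and below 1 at both times in 6431 of the 6447 called below. The calls were made on these same libraries, so this agreement was largely fixed by the selection. These 1098 peaks, called strongly marked below, covered 18.79 of 478.1 Mb and held 6.18% of H3K27me3 counts at 0 h and 5.93% at 48 h, against 3.64% and 3.59% of input counts. The calls below input depended on the scaling. With TMM factors there were 7629 peaks above and 1506 below input, and with the libraries scaled to the 10% of peaks of lowest ratio, 56355 above and 23 below. The median log2 ratio of all peaks was −0.17 with total counts, −0.02 with TMM factors and 0.56 with that last scaling. Its reference peaks were picked by the same ratios that are tested here, so its shift upward is built in. DESeq2 called 2611 above and 8 below.

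Of gene regions, which sum the peaks over a gene span and 2000 bp on either side, 4012 of 18335 (21.9%) were above input and 3038 (16.6%) below. Strongly marked regions numbered 755 (4.12%). TMM factors moved these counts to 6493 above and 833 below, and the scaling to the lowest 10% of peaks to 15869 and 6. Every gene named below as below input had a log2 ratio above 0 with that last scaling, except Firre, which that fit left out. Because that scaling takes its reference from the lowest ratios, this was largely fixed in advance and does not test those calls. Of 21887 coding genes, 11719 (53.5%) had a consensus peak at all.

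The highest ratios with at least 50 input counts were found at X-linked genes and at the HoxB cluster. Irs4 (chrX:141720234-141725727), an insulin receptor substrate gene, held 181 and 195 H3K27me3 counts at 0 h and 48 h, against 31 and 22 input counts. Its ratio was 2.78 (1.888 to 4.204) at 0 h and 3.84 (2.47 to 6.27) at 48 h. Of the 12 peaks named as highest, 8 lay on the X chromosome, among them those over Irs4, Sowahd, Arhgap6, Hs6st2, Mamld1, Sox3 and Trpc5. Sox3 encodes an HMG-box transcription factor of the brain. Mamld1 held 169 and 173 H3K27me3 counts at 0 h and 48 h, against 30 and 34 input counts, a ratio of 2.68 at 0 h and 2.21 at 48 h.

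The autosomal peaks among the 12 lay over HoxB, Nxph4, Ajm1 and Lmo4. Nxph4, a neurexophilin gene, shared its peak (chr10:127523039-127536635) with the ends of Shmt2 and Lrp1 and had a ratio of 2.45. Lmo4 on chromosome 3, a LIM-only transcription cofactor gene, held 490 and 461 H3K27me3 counts at 0 h and 48 h, against 98 and 86 input counts, a ratio of 2.35. The ratios of Nxph4 and Lmo4 were above 2.2 at each time.

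The 6 lowest peaks were 1.24 to 2.64 kb wide and shallow. The lowest, within Rnf24, held 20 and 21 H3K27me3 counts, against 21 and 35 input counts, a ratio of 0.332. Next to the fold limit, the peak over Pphln1 and Prickle1 lay just inside it at 3307 and 3364 H3K27me3 counts against 1046 and 972 input counts. The peak over Mpped1 lay just outside with 1552 and 1638 against 471 and 494, and both round to a ratio of 1.5.

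The 4 Hox clusters, which hold the homeobox genes that pattern the body axis, lay in 4 of the 10 longest domains described below, and had the highest ratios among those 10. All 39 Hox genes had a consensus peak and all were in regions above input, with 38 of 39 strongly marked. HoxA was covered by 1 peak (chr6:52139636-52282771, 143135 bp) with 8909 and 8653 H3K27me3 counts at 0 h and 48 h, against 1872 and 1867 input counts. Its ratio was 2.26 (2.15 to 2.38) at 0 h and 2.01 (1.91 to 2.11) at 48 h.

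HoxD was also covered by 1 peak (chr2:74637183-74789361), which runs from the neighbouring homeobox gene Evx2 to Hoxd1. It held 8572 and 8096 H3K27me3 counts, against 1963 and 1824 input counts, a ratio of 2.08 at 0 h and 1.92 at 48 h. In both clusters the 2 H3K27me3 libraries lay far above the input libraries at both times.

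HoxB and HoxC were broken by gaps. The HoxB peak from Hoxb9 to Hoxb1 (chr11:96267287-96387596) held 8611 and 8383 H3K27me3 counts, against 1571 and 1527 input counts, a ratio of 2.61 at 0 h and 2.38 at 48 h, higher than the blocks of the other 3 clusters. Hoxb13, at the far end, had a peak of its own with a ratio of 1.57. Of the 6 peaks from Hoxb13 to Hoxb1, 2 were above input, 3 below and 1 was not called, so 2 strongly marked blocks flanked a stretch not above input. In HoxC the peak from Hoxc12 to Hoxc4 (chr15:102934929-103040609) had a ratio of 1.955, and that of Hoxc13 a ratio of 1.29, the lowest of the 6 Hox regions.

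Neuroectoderm regulators followed, with 23 of 24 regions above input (17 strongly marked), none below and a median ratio of 1.64, against 0.971 over all gene regions. Sox3, a neural progenitor factor on the X chromosome, held 400 and 347 H3K27me3 counts at 0 h and 48 h, against 80 and 61 input counts, a ratio of 2.40. Neurog1, a proneural bHLH gene, held 897 and 778 against 190 and 179, a ratio of 2.24 at 0 h and 1.88 at 48 h. Nkx6-1, a homeobox gene of ventral neural tube and pancreas, held 2004 and 1873 against 418 and 454, a ratio of 2.28 at 0 h and 1.79 at 48 h. Olig2, an oligodendrocyte and motor neuron factor, was the 1 member not called, with 42 and 36 H3K27me3 counts against 18 and 21 input counts. Its ratio was 1.11 at 0 h and 0.743 at 48 h. Neurod1 had 1.48 at 0 h and 1.01 at 48 h and was above input in edgeR's fit (adjusted p = 0.0187). That p-value takes no account of the difference between these values.

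Mesoderm regulators had 20 of 22 regions above input (12 strongly marked), none below and a median ratio of 1.52. Hand2, a heart and limb bHLH factor, was highest, with 2816 and 2839 H3K27me3 counts against 695 and 731 input counts, a ratio of 1.93 at 0 h and 1.68 at 48 h. Foxc1 and Isl1, factors of the mesenchyme and the second heart field, had ratios of 1.71 and 1.67. Msgn1 and Mixl1, both expressed in the primitive streak, were not called at 0.912 and 1.12, and Mixl1 was above input with TMM factors. Tbx6 had no peak.

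Endoderm regulators had 9 of 12 regions above input, 1 below and a median ratio of 1.43. Pdx1 and Cdx2, ParaHox genes of pancreas and intestine, shared 1 region with 3358 and 3340 H3K27me3 counts against 928 and 916 input counts, a ratio of 1.65. Foxa1, a pioneer factor of gut endoderm, had 1.62 and Gata5, a zinc finger factor of heart and gut, 1.55. Cer1, a secreted inhibitor of Nodal and BMP signals, held 228 and 234 against 139 and 134, a ratio of 0.768, and was below input with total counts (adjusted p = 0.00361 in edgeR) but not with TMM factors. Hhex had no peak.

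The families of developmental regulators went the same way. All 12 LIM homeobox regions were above input (median ratio 1.63, highest Lhx3 at 2.05), as were all 13 Nkx regions (1.61, Nkx6-1), all 7 Dlx and Msx regions (1.55, Dlx4 at 1.84), all 10 sine oculis and Iroquois homeobox regions (1.52, Irx5 at 1.74) and all 9 Pax regions (1.48, Pax6 at 1.91). T-box genes had 12 of 14 above and none below, with Tbx2 highest at 1.90. Forkhead genes had 21 of 32 above and 3 below, with Foxb2 highest at 1.80 and Foxn1, a thymus factor, among those below at 0.773. Sox genes had 11 of 16 above and 3 below, and no Sox region was below with TMM factors. DESeq2 called no forkhead or Sox region below input. Sox11, a factor of immature neurons, was below input at 0.790, a call not kept with TMM factors.

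Secreted signals were marked too. Of Wnt ligand regions 17 of 19 were above input and none below, led by Wnt1 at 1.91. Of Fgf ligand regions 14 of 21 were above and 2 below. Fgf8, a ligand of the gastrulating embryo, held 827 and 862 H3K27me3 counts at 0 h and 48 h, against 193 and 169 input counts, a ratio of 2.04 at 0 h and 2.21 at 48 h. Fgf10, a ligand of limb and lung buds, was at 0.705 and below input with total counts but not with TMM factors. Bmp and Gdf ligands had 10 of 17 above and 2 below, with Bmp8a highest at 1.82 and Bmp5 lowest at 0.708. DESeq2 called none of these ligand regions below input.

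**Figure D1:**
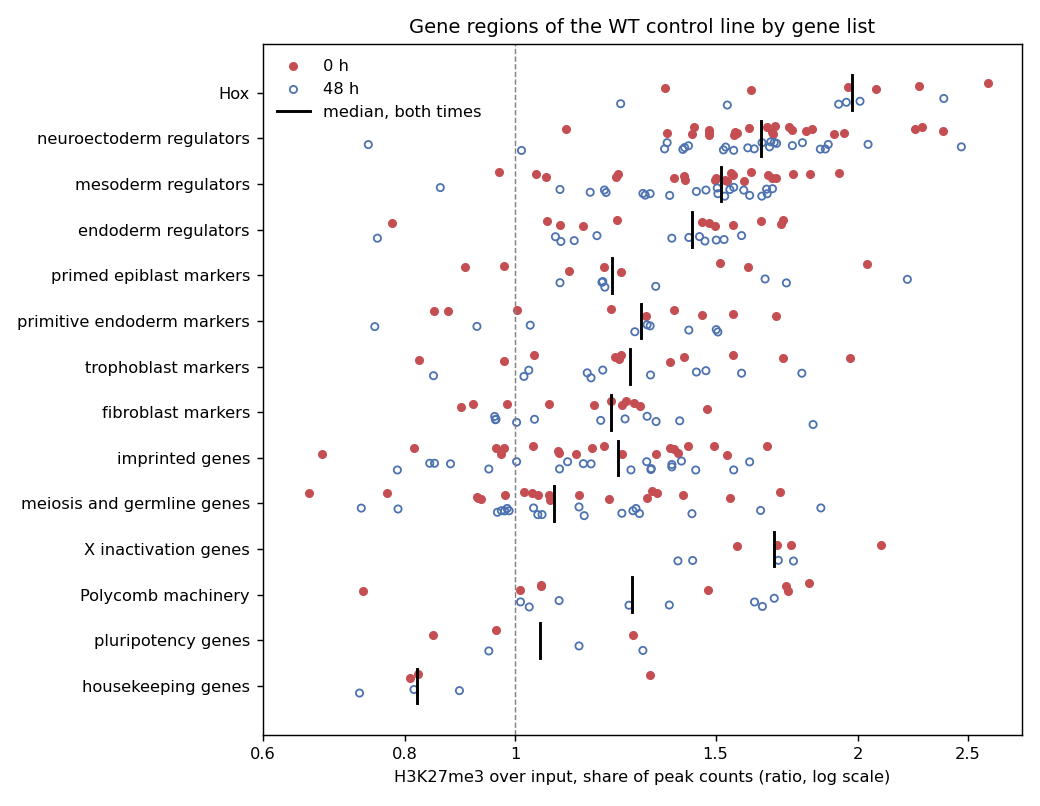
Ratio of H3K27me3 to input (x axis, log scale) for each gene region with a tested peak in 14 gene lists, as a filled point at 0 h and an open point at 48 h, with the median over regions of the ratio at both times as a black bar. Hox regions have the highest median (1.98), and the 3 housekeeping regions with a peak the lowest (0.820, with total counts).

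Genes of the stem cells themselves mostly had no consensus peak. Of 20 pluripotency genes, 17 had none, among them Pou5f1, Sox2, Nanog, Klf4 and Zfp42. The share with a peak was 15.0%, against 53.5% of coding genes. Esrrb, an orphan nuclear receptor gene of naive cells, was above input with 2890 and 3119 H3K27me3 counts at 0 h and 48 h, against 1083 and 1044 input counts, a ratio of 1.268 at 0 h and 1.295 at 48 h. Dppa3 and Lin28a were not called at 1.05 and 0.889.

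Housekeeping genes were alike, with 15 of 18 having no peak. B2m, the light chain of MHC class I, held 282 and 314 H3K27me3 counts, against 163 and 167 input counts, and was below input at 0.820 (adjusted p = 0.0158 in edgeR) with total counts but not with TMM factors. Gusb and Ywhaz were not called at 1.07 and 0.768. Ribosomal protein genes had a peak in 8 of 78 cases, and replication-dependent histones in 7 of 68.

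Markers of primed epiblast, which follows the naive state of these cultures, had 6 of 8 regions above input and none below. After Fgf8, Otx2 and Pou3f1, transcription factors of that stage, were highest at 1.66 and 1.58, and Dnmt3a was lowest at 0.993. Primitive endoderm markers had 6 of 9 above and 1 below, led by Gata6 at 1.597, Sox17 at 1.53 and Foxa2 at 1.44. Dab2, an endocytic adaptor of that lineage, was below at 0.883 with total counts only among the scalings tried, and Lama1 was lowest at 0.811, not called.

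Trophoblast markers had 8 of 11 regions above and 1 below. Gata3, Cdx2 and Hand1 were highest at 1.88, 1.65 and 1.51. Elf5, a trophoblast stem cell factor, held 523 and 577 H3K27me3 counts, against 302 and 295 input counts, a ratio of 0.836, below input with total counts but not with TMM factors. Fibroblast markers had 6 of 11 above and none below, against 21.9% and 16.6% of all gene regions. Twist1, Prrx1 and Thy1 were highest at 1.62, 1.31 and 1.27, and Col1a2 was lowest at 0.937, not called. The collagens and the enzymes that cut the matrix were near the level of all regions, with medians of 1.00 and 0.993.

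Genes of the Polycomb machinery had 4 of 8 regions above input and none below. None of Ezh2, Eed, Suz12 and Jarid2, which form the writing complex, had a peak, and 16 of the 25 listed genes had none. Cbx2, whose protein reads the mark, held 4629 and 4561 H3K27me3 counts at 0 h and 48 h, against 1267 and 1199 input counts. Its ratio was 1.69, which rested on the peaks in its flanks, since its span alone had a log2 ratio of −0.97. Bmi1, a subunit of repressive complex 1, had 1.68, and Ezh1 had 1.42. Pcgf6 was lowest at 0.860 with 17 and 19 H3K27me3 counts and was not called.

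Imprinted genes, expressed from 1 parental copy, had 11 of 20 regions above input and 2 below, against 21.9% and 16.6% of all gene regions. Igf2, the fetal growth factor, held 2166 and 2235 H3K27me3 counts, against 619 and 603 input counts, a ratio of 1.63. Cdkn1c and Slc22a18, neighbours in the Kcnq1 domain, had 1.49 and 1.45. The Slc22a18 region takes in the peaks of Cdkn1c and Phlda2, so these regions share counts and are not separate results. Zim1 was at 0.730 and Snrpn at 0.919, and DESeq2 called no imprinted region below input. Snrpn was below input with total counts, while with TMM factors its log2 ratio was 0.03. Counts do not separate the 2 parental copies.

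Meiosis and germline genes had 7 of 19 regions above input and 1 below, with a median of 1.08. Over all gene regions 21.9% were above and 16.6% below, with a median of 0.971. Of the 3 highest, Taf7l at 1.78 and Tex11 at 1.52 are X-linked and Tdrd6 at 1.49 is autosomal. Sycp3, a synaptonemal complex gene, was below input at 0.754 with total counts but not with TMM factors, and Hormad1 was lowest at 0.722, not called.

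Receptor families of the senses had median ratios below that of all gene regions. The median over all single peaks was 0.888, with 4.24% above and 6.33% below input, and the olfactory median was near that level. Olfactory receptor genes had a consensus peak in 313 of 1110 cases, and 13 of 294 regions were above and 62 below input, with a median ratio of 0.886. With TMM factors 33 were above and 22 below. Of vomeronasal receptor regions none of 74 was above and 26 were below (median 0.811), against 2 above and 7 below with TMM factors. DESeq2 called none of the 74 either way. Cytochrome P450 genes had 9 above and 15 below of 65, which TMM factors turned to 16 above and 3 below. Their highest member was Cyp26a1 at 1.76, the enzyme that breaks down retinoic acid. Among neurotransmitter receptors, those for serotonin and dopamine had 11 above and 1 below of 18 (15 and 0 with TMM factors), with a median of 1.24. Glutamate receptors had 9 above and 5 below of 24 (18 and 0 with TMM factors), with a median of 1.02. GABA receptors had 5 above and 6 below of 19 (8 and 3 with TMM factors), with a median of 1.03 and Gabrp below at 0.622. DESeq2 called no GABA receptor region below input. Over all gene regions 21.9% were above and 16.6% below, and with TMM factors 6493 and 833 of 18337.

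The mark was concentrated at starts of coding genes. Of 6492 tested peaks within 1 kb of one, 30.4% were above input and 8.66% strongly marked, and they made up 51.2% of all strongly marked peaks. Elsewhere in coding gene spans 3.70% of 38339 peaks were above input, over lncRNA or antisense genes only 3.00% of 11922, and outside these spans 1.23% of 45030. The ratio of summed counts was 1.23 at 0 h and 1.21 at 48 h at the starts, and 0.915 and 0.918 outside gene spans. With TMM factors 42.6% were above input at the starts and 3.08% outside gene spans. Peaks at starts were also wider, with a median of 7998.5 bp against 2015 bp outside gene spans. Among peaks of 5 to 10 kb, 22.3% at starts and 5.31% over all positions were above input. Under 1 kb it was 0.297% and 0.100%, with median ratios of 0.822 at starts and 0.849 over all positions.

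Wide peaks were above input most often, 83.1% of the 378 peaks of at least 50 kb and 0.100% of the 21905 peaks under 1 kb. Wider peaks hold more counts, so the test finds smaller ratios in them, but the median ratio also differed, at 1.297 in the widest class and 0.849 in the narrowest. At coding starts alone, peaks of 5 to 10 kb had a median ratio of 1.04 and those of at least 50 kb 1.36. The median width was 10155 bp in strongly marked peaks and 2356 bp over all. The authors' own fold enrichment from the peak caller, a value per peak, had a median of 2.69 in strongly marked peaks, 1.53 over all and 1.51 in those below input.

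**Figure D2:**
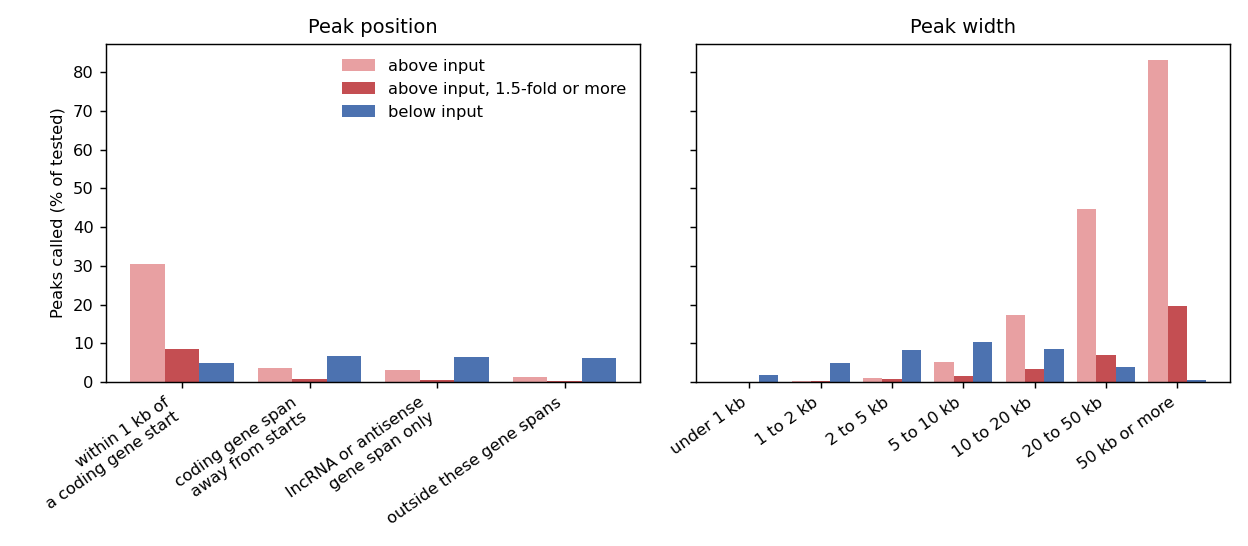
Percentage of tested peaks called above input, above input by at least 1.5-fold, and below input (total-count scaling), by position and by width. Peaks within 1 kb of a coding start reach 30.4% above input, and those of at least 50 kb reach 83.1%. Calls below input are fewer with TMM factors.

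Strongly marked peaks no more than 10 kb apart were joined into 1014 domains, of which 57 held several peaks. Their median length was 11.3 kb, 312 reached 20 kb and 78 reached 50 kb. The 4 longest were the HoxC block with its downstream neighbourhood (216.3 kb), HoxA with Evx1 (192.2 kb), a block over Gsx1, Pdx1, Cdx2, Urad and Flt3 (155.2 kb) and HoxD with Evx2 (152.2 kb). A block over Six3 and Six2, homeobox genes of forebrain and kidney, followed at 130.7 kb with a ratio of 1.64. The next lay over Adgrb2 and Col16a1, HoxB, the Mir9-3 host region beside Rhcg, Tbx5, and Wnt9b with Wnt3. The third block, which holds 3 ParaHox genes, had a ratio of 1.61 at 0 h and 1.63 at 48 h as a whole. Within it, the region of Pdx1 and Cdx2 had 1.72 at 0 h and 1.58 at 48 h.

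The X chromosome stood apart. Of its 605 tested peaks, 37.7% were above input and 35.4% strongly marked, against 4.03% and 0.869% on the autosomes. None of its peaks was below input, against 6.33% on the autosomes. The ratio of summed counts was 1.68 at 0 h and 1.64 at 48 h on X, while the autosomes ran from 0.954 on chromosome 16 to 1.05 on chromosome 4. X peaks made up 0.594% of tested peaks and 19.5% of strongly marked ones.

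The difference was present in each position class. At coding starts the median ratio was 1.78 on X and 1.07 on autosomes, and outside gene spans it was 1.52 and 0.873. Input counts per kb of peak on X were 0.542 of the other autosomes at 0 h and 0.536 at 48 h. X peaks were narrower (median 1905 bp against 2391 bp), and the authors' fold was no higher on X (median 1.503 against 1.532). Whether input depth and peak calling had a part in the X ratios was not tested. The X calls depended on the test and its filter, since DESeq2 called 1.69% of X peaks above input and limma-voom 31.4%. Both shares are of all 653 X peaks, while the edgeR shares are of the 605 tested. A peak that DESeq2 left without an adjusted p counts as not called, and the part of this in the low share was not tested.

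At the X inactivation centre, all 4 tested regions were above input, and DESeq2 called 3 of them. Their ratios lay near the level of the whole chromosome, where the median over tested X peaks was 1.61. Jpx, a non-coding activator of Xist, held 584 and 617 H3K27me3 counts at 0 h and 48 h, against 159 and 157 input counts, a ratio of 1.73. Cdx4 and Ftx, neighbours of Xist, had 1.72 and 1.65, and the region shared by Xist and Tsix had 1.55 from 125 and 93 counts against 35 and 29. ChIP does not tell overlapping genes on opposite strands apart. A domain of 71.8 kb (chrX:103488367-103560112) ran from Jpx into Ftx, beside Xist and Tsix, with a ratio of 1.63 at 0 h and 1.59 at 48 h.

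The single peak assigned to Firre (chrX:50569315-50570264) held 1 and 0 H3K27me3 counts at 0 h and 48 h, against 3 and 6 input counts. The count filter of edgeR's fit left it out. Firre was below input in limma-voom (adjusted p = 7.83e-08), in edgeR with no filter (adjusted p = 0.000493) and in edgeR's fit of all 16 libraries (adjusted p = 0.00521). DESeq2 gave it no adjusted p and an unadjusted p of 0.0561. With 1 H3K27me3 count in all, no fold is given. Of its 5 tested neighbour regions, 4 were above input. Hs6st2, a heparan sulfate sulfotransferase gene, held 354 and 365 H3K27me3 counts against 76 and 80 input counts, a ratio of 2.09. Phf6 and Igsf1 had 3.25 and 1.99 on few input counts (2 and 4 at Phf6, 10 and 8 at Igsf1), Stk26 had 1.40, and Gpc3 was not called at 1.42. DESeq2 called 1 of these regions above input.

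**Figure D3:**
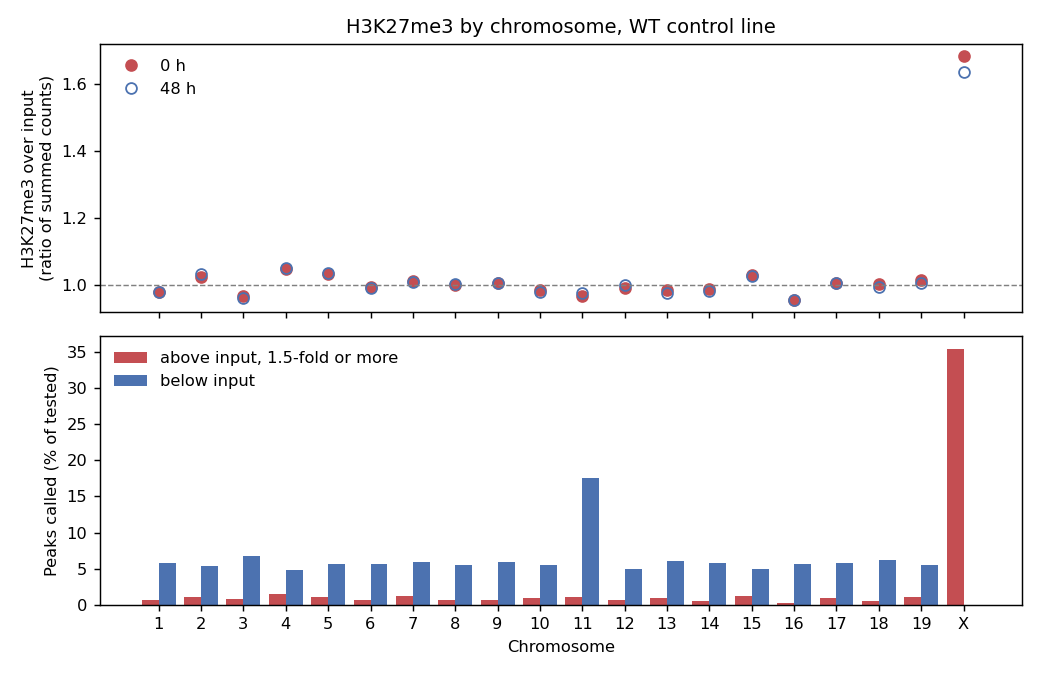
Upper panel, ratio of H3K27me3 to input counts summed over all tested peaks of each chromosome, at 0 h (filled) and 48 h (open). Lower panel, percentage of tested peaks called above input by at least 1.5-fold and below input (total-count scaling; fewer are below with TMM factors). X reaches 35.4% strongly marked, and chromosome 11 has 17.6% below input.

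Chromosome 11 had the largest share of peaks below input, 1011 of 5753 (17.6%), beside 4.75% above. Its peaks covered 39.23 Mb, more than on any other chromosome. Input per kb of peak on chromosome 11 was 1.04 of that on the other autosomes at 0 h and 1.03 at 48 h in WT control. The other lines had 1.01 and 1.01 in WT transgene, 1.40 and 1.40 in KO control and 1.24 and 1.24 in KO transgene. The peaks were called as 1 combined set, and the part of these input differences in the low ratios on chromosome 11 was not tested.

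Promoter sequences of marked and unmarked genes are shown next, to make their CpG content visible. They are the 250 bases before the RefSeq start on GRCm38.p6, 5′ to 3′ along the gene, with CpG in capitals. Neurog1 (chr13:56252181-56252430, minus strand) and Nkx6-1 (chr5:101664712-101664961, minus strand) are strongly marked starts. Nanog (chr6:122707239-122707488, plus strand), a pluripotency factor gene, is a start with no peak, and B2m (chr2:122147437-122147686, plus strand) one below input.
Neurog1: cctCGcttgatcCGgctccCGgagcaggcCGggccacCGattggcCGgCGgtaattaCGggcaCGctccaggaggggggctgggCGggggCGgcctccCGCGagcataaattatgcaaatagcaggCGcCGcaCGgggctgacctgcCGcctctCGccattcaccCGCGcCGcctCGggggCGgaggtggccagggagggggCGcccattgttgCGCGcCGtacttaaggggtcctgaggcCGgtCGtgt
Nkx6-1: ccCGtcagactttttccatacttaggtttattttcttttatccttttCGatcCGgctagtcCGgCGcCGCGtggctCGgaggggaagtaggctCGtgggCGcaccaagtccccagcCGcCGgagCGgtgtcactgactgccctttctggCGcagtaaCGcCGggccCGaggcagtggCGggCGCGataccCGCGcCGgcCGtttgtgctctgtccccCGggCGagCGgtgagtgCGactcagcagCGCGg
Nanog: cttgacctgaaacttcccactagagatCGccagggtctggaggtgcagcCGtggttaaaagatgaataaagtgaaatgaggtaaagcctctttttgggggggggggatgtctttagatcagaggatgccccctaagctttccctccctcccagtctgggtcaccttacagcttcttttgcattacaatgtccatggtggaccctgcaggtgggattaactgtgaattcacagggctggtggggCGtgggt
B2m: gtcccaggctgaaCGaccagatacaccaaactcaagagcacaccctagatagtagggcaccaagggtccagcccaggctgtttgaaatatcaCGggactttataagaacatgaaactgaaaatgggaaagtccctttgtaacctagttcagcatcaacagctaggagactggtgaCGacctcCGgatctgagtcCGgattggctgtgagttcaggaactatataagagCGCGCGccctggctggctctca

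These stretches hold 29 CpG in Neurog1, 30 in Nkx6-1, 3 in Nanog and 8 in B2m. Nanog and B2m are not typical of their classes: over 300 bases their CpG observed over expected was 0.192 and 0.682, against class medians of 0.614 and 0.280 given next. Across 21229 RefSeq promoters of 300 bases, the median CpG observed over expected was 0.640 where the peak at the start had a ratio of at least 2, 0.681 at 1.5 to 2 and 0.635 at smaller ratios above input. It was 0.420 where the peak was not called, 0.280 where it was below input and 0.614 where there was no peak. Starts with no peak thus reached nearly the CpG content of marked ones, and those below input were CpG-poor. Of CpG-rich promoters 15.1% had a start above input and 0.835% one below, against 10.6% and 2.32% of the others.

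The TATA box TATAAA was found on either strand in 9.01% of promoters at 1.5 to 2-fold, 18.9% of those below input and 12.6% of all promoters. In the same 3 classes the GC box GGGCGG was found in 60.4%, 28.0% and 46.2%, and GCGCGC in 26.5%, 10.0% and 18.0%. Both of these contain CpG, so their shares are not independent of CpG content. The CCAAT box was found in 32.3%, 35.7% and 38.2%, the E-box CACGTG in 8.45%, 4.57% and 7.84%, and GAGAGAGA in 4.23%, 2.57% and 3.36%. CACGTG stood at 2.33% of the 86 promoters at 2-fold or more.

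**Figure D4:**
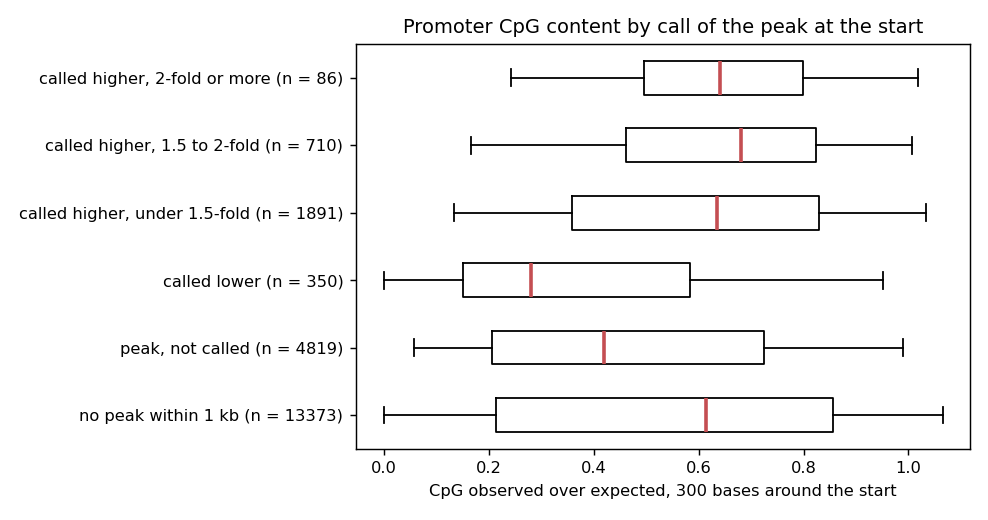
CpG observed over expected in the 300 bases around each RefSeq start, by the call of the peak within 1 kb. Boxes span the quartiles, red lines are medians and whiskers reach the 5th and 95th percentiles. Medians are 0.640 and 0.681 in the most strongly marked classes and 0.280 where the peak is below input with total counts, a class that is smaller with TMM factors.

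Marked loci held slightly smaller shares of the counts at 48 h of doxycycline than at 0 h. The share of H3K27me3 counts at 48 h over that at 0 h was 0.917 (0.904 to 0.931) in the Hox peaks, 0.942 (0.931 to 0.953) in peaks of neuroectoderm regulators, 0.964 (0.951 to 0.977) in those of mesoderm regulators and 0.953 (0.936 to 0.971) in those of endoderm regulators. Over all strongly marked peaks it was 0.959, against 1.01 in peaks below input. The matching input values were 0.990 in Hox peaks and 0.985 in strongly marked ones. There was 1 library per time, so a difference between libraries cannot be told apart from one between times. Across the 60650 peaks with at least 50 input counts, the log2 ratios at 0 h and 48 h had a Pearson correlation of 0.494, as a description across peaks that share libraries and depth.

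WT control was set against the other lines by the difference of its H3K27me3 effect over input from the mean effect of the other 3 lines. Of 102923 peaks, none (0.0%) was higher in WT control and 4 (0.00389%) were lower in edgeR's fit of all 16 libraries, with 6020 at an unadjusted p under 0.05. limma-voom called 3 higher and 16 lower. The 4 peaks lay at Etv4, Tnrc18, HoxC and HoxA.

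At Etv4 (chr11:101770129-101794050), an ETS factor gene, the ratio was 0.812 at 0 h and 0.821 at 48 h in WT control. It was 0.975 and 1.303 in WT transgene; the KO lines had 1.47 and 1.33 in KO control and 1.14 and 1.34 in KO transgene. WT control was lowest at both times, and the log2 difference was −0.61 ± 0.08 (SE, edgeR adjusted p = 4.02e-08). Against WT transgene alone it was −0.47 with an edgeR adjusted p of 0.126. Etv4 lies on chromosome 11, where the input densities given above differed between lines, and their part in this difference was not tested.

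At Tnrc18 (chr5:142812403-142816957) the ratio was 0.589 and 0.595 at 0 h and 48 h in WT control, 0.640 and 0.502 in WT transgene, 2.21 and 2.00 in KO control and 1.10 and 0.961 in KO transgene. The log2 difference was −0.86 ± 0.18 (SE, edgeR adjusted p = 0.0473). Both WT lines were low, and against WT transgene alone the difference was 0.04. Without the 0 h pair of WT control the adjusted p was 0.556, and without the 48 h pair 0.655.

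The HoxC and HoxA peaks were lower in WT control by smaller amounts. The HoxC ratio was 1.962 and 1.954 at 0 h and 48 h in WT control. It was 2.17 and 2.13 in WT transgene, 2.87 and 2.48 in KO control and 2.29 and 2.31 in KO transgene. The log2 difference was −0.26 ± 0.04 for HoxC (edgeR adjusted p = 6.32e-05) and −0.19 ± 0.04 for HoxA (adjusted p = 0.0473). Leaving chromosome 11 out of the fit gave HoxA and Tnrc18 an edgeR adjusted p of 0.0544 each. HoxC was not called without either pair (adjusted p = 0.0912 and 0.132), and HoxA had an adjusted p of 0.00321 without the 0 h pair and 0.929 without the 48 h pair. The input library of KO control at 0 h was the shallowest, at 3340654 counts in peaks.

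Lower ratios in WT control were also seen over the other lineage genes. In peaks of neuroectoderm regulators the ratio over both times was 1.62 in WT control, against 1.73 in WT transgene, 1.79 in KO control and 1.72 in KO transgene. In the 329 peaks with an authors' fold of at least 3 WT control had 1.75, against 1.88 in WT transgene, 1.92 in KO control and 1.86 in KO transgene. The share of counts inside marked peaks was thus slightly lower in the WT control libraries, and a weaker pulldown cannot be told apart from less mark at these loci.

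**Figure D5:**
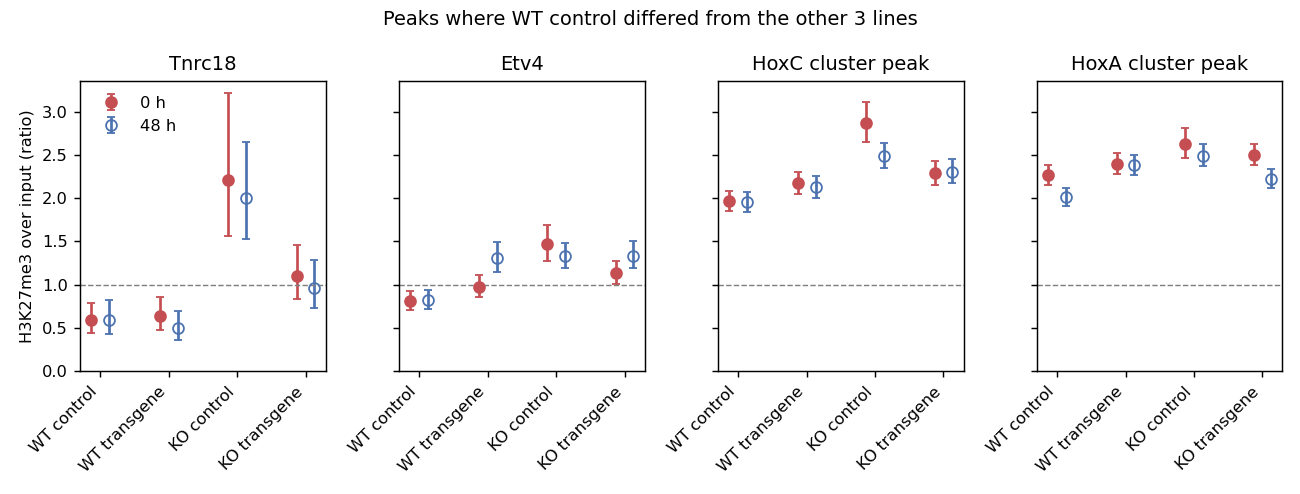
Ratio of H3K27me3 to input in the 4 peaks where WT control differed from the other 3 lines, by line, at 0 h (filled) and 48 h (open), with 95% counting intervals. At Etv4 WT control is lowest at both times, and at Tnrc18 both WT lines lie below KO control.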

How the data were processed

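Input and H3K27me3 ChIP-seq libraries of mouse embryonic stem cells were analysed from a deposited table of raw read counts per consensus peak. The deposited peak list holds the authors' score, fold (ratio) enrichment and −log10 p- and q-values, per the file headers. Builds and tools in the submitters' processing notes are mm10, MACS2 2.2.71, BWA 0.7.17-r1188, DESeq2 1.26.0 and featureCounts, with no role stated. The sources used here do not give the libraries behind the peak call. Peak starts are printed as deposited.

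Library size was the total count in peaks, from 5983860 to 13804844 in the 4 libraries. edgeR 4.0.16 (R 4.3.3) fitted time and assay with quasi-likelihood after filterByExpr, with Benjamini-Hochberg adjustment over all peaks or regions, and a 16-library fit with 1 effect per line compared lines. Code was tested on simulated counts. Genes were RefSeq coding, lncRNA and antisense spans of GRCm38.p6, the build of mm10, with 2000 bp flanks, and genes with the same peaks share a region. The table of spans gives no exons.

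Members and lists were chosen with earlier results of these data known. Named peaks were the 12 highest and 6 lowest past the threshold with at least 50 input counts, the same direction at both times and at most 1 peak per gene. Named genes were the 3 highest and the lowest of each list, members going against their list, the highest of each family, Firre and Xist, and for lines the 6 largest differences each way. Other genes were named after their values were seen. Alternatives were TMM and DESeq2 factors, scaling to the lowest 10% of peaks, DESeq2 1.42.0, limma-voom (limma 3.58.1), no time block, other filters and windows, all 16 libraries and each library left out. Intervals are exact binomial. With 2 libraries against 2, an exact permutation test could not go below 0.333. Some items that these rules select are not reported here.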

Additional observations from a re-analysis of the deposited data

Results flagged for a closer look

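The enrichment of WT control over input differed from the mean of the other 3 lines at 4 peaks, by the test of that difference in edgeR's fit of all 16 libraries. The log2 differences were −0.61 at Etv4, −0.86 at Tnrc18, −0.26 at the HoxC peak (Hoxc12 to Hoxc4) and −0.19 at the peak over the HoxA cluster. None passed the threshold against WT transgene alone. No group held 4 libraries, so no library could be tested as standing apart within its group.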

How the results depend on the processing

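The number of marked peaks and all calls below input depended on scaling and test, and the cause was not tested. With TMM factors, DESeq2 size factors, scaling to the lowest 10% of peaks and DESeq2, the peaks above input numbered 7629, 7561, 56355 and 2611, and those below 1506, 1541, 23 and 8. Leaving out 1 library at a time gave 2728 to 3591 above and 2101 to 3764 below. Gene regions above input numbered 6493, 6449 and 15869 under the 3 scalings (3194 to 3637 without 1 library), and those below 833, 854 and 6, against 13 with DESeq2 and 1657 to 2364 without 1 library. Scaled to the lowest 10%, 5 pluripotency and housekeeping genes were above input, against 1. The reference of that scaling was picked by the same ratios, so its rises are built in.

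At coding starts the share above input was 42.6%, 42.5% and 84.6% under the 3 scalings, 21.6% with DESeq2, 32.6% with a minimum mean count of 20 and 21.9% to 27.7% without 1 library. Outside gene spans it was 3.08%, 3.02%, 50.7%, 0.388%, 1.65% and 0.483% to 0.899%, and 1.12% with limma-voom. On X it was 47.5%, 47.5%, 94.1%, 1.69%, 53.9% and 21.5% to 33.2%, and 31.4% with limma-voom. These shares are of the peaks that each fit kept, and a peak without an adjusted p in DESeq2 counts as not called. Domains numbered 2429 at a fold limit of 1.3 and 139 at 2. Peaks lower in WT control than in the other lines numbered 7 with TMM factors, 0 against WT transgene alone (5648 at an unadjusted p under 0.05 in edgeR), 1 without chromosome 11, 16 with limma-voom (3 higher) and 1 to 2 without a pair of libraries.

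Scaled to the lowest 10%, these log2 ratios turned positive: Olig2 0.59, Msgn1 0.59, Cer1 0.35, Lin28a 0.57, B2m 0.44, Zim1 0.28, Snrpn 0.61, Sycp3 0.31, Col1a2 0.64, Lama1 0.43, Elf5 0.47, Fgf10 0.23, Bmp5 0.23, Dab2 0.55, Dnmt3a 0.72, Foxn1 0.36, Sox11 0.39 and Gabrp 0.049. These turns were largely fixed by the choice of reference and do not test the calls. Snrpn was at 0.03 with TMM factors, 0.028 with size factors and 0.028 with DESeq2, and Dnmt3a at 0.14 with TMM factors and 0.14 with size factors. Cbx2 without flanks was at −0.97, and the Tnrc18 difference against WT transgene alone was 0.042. The widest peaks of the 4 Hox clusters stayed above input under every alternative run.

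No paired analysis was possible because the replicate number is 1 in every group; the libraries were paired by time instead. With 1 library per time and 1 residual degree of freedom, biological spread was not measured, and narrow peaks were too shallow for small differences to be detectable.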
